A study of Caenorhabditis elegans with 16 samples.

Results

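Messenger RNA of whole Caenorhabditis elegans larvae carrying daf-2(e1370) was compared with that of the wild type at the first larval stage, L1, in arrest without food. The comparison uses 8 of the 16 libraries of the series: 4 of strain CB1370, the daf-2(e1370) mutant, and 4 of N2, the laboratory wild type, picked by their titles. Embryos were obtained by bleaching well-fed gravid adults and hatched in S-basal, a buffer without food, at 20 °C, and the larvae were collected 24 hours after bleaching, 12 hours after hatch. Each library held 10000 larvae and was made from polyadenylated RNA of the whole animal. The other groups, used here only to ask whether the daf-2 difference recurs, are LRB444, which carries irld-39(duk1) together with irld-52(duk17) and is called the irld mutant, and a triple mutant that adds daf-2(e1370) to these alleles, kept as the independent lines LRB457 and LRB458. No library is shared between daf-2 against wild type and the triple against the irld mutant. Each of the groups compared is 1 strain, so the daf-2 allele and any other difference between CB1370 and N2 cannot be told apart.

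The gene daf-2 encodes the worm's only insulin/IGF-like receptor. The active receptor signals through the kinases AGE-1, PDK-1 and AKT-1 and keeps DAF-16, the FoxO transcription factor, out of the nucleus, and when signalling is low DAF-16 enters the nucleus and switches stress, fat and arrest genes. In hatched larvae without food this pathway is known for holding development in L1 arrest and for setting how long the arrested larvae survive. The allele e1370 is a temperature-sensitive missense change in the kinase domain, so the level of daf-2 mRNA is no check of the label.

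Between 14033534 and 17632908 counts fell in genes in each of the 8 libraries, and 14058 genes with at least 1 CPM (counts scaled to library size) in at least 4 of the 16 libraries were tested. Replicates are labelled as biological. On the first principal component of all 16 libraries the 4 wild-type libraries lay between -32.8 and -37.8, and daf-2 replicates 1 to 4 at 38.1, 6.901, 58.1 and 4.36, so daf-2 replicates 1 and 3 lay apart from 2 and 4. Wild-type replicate 3 differed most from the others of its group, with a chi-square per gene of 73.9 to 100.9 against them. Replicate 2 gave 49.2 against replicate 1 and 52.9 against replicate 4, and replicates 1 and 4 gave 12.0. On the second principal component wild-type replicates 2 and 3 lay at -23.48 and -23.25, apart from replicates 1 and 4 at 7.277 and 3.492. The summed level of 32 body wall muscle genes was 18380 CPM in the lowest wild-type library, replicate 3, and 32930 to 34570 CPM in the others. The 17 epidermis and seam genes in the files summed to 2697, 1707, 1289 and 2757 CPM in wild-type replicates 1 to 4, so replicates 2 and 3 were the lowest. Without wild-type replicate 3, 1026 genes were higher and 1079 lower, against 1121 and 1088 with it.

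Starved daf-2 larvae differed from the wild type in 2209 genes, 15.7% of those tested, at an adjusted p under 0.05 (edgeR quasi-likelihood test, Benjamini-Hochberg): 1121 were higher (7.97%) and 1088 lower (7.74%). The higher genes together held 50570 CPM in the wild type and 86960 in daf-2. The lower genes held 134500 and 83090 CPM. Over all tested genes the median log2 fold change was -0.003. Most changes were modest, with medians of 0.77 among the higher and -0.73 among the lower genes on the log2 scale. A change over 2-fold was found for 397 higher and 347 lower genes, and one over 8-fold for 52 and 19. The 4 libraries of one group all lay above the 4 of the other in 18.3% of tested genes (9.45% higher in daf-2, 8.81% lower), and in 1872 of the called ones. Where the irld alleles were present, 96.9% of the higher and 97.2% of the lower genes differed in the same direction between the triple and the irld mutant, against 71.1% of all tested genes. Genes at 100 to 500 CPM were called most often (21.3%, with 13.6% lower), and those under 5 CPM least often (11.1%).

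**Figure D1:**
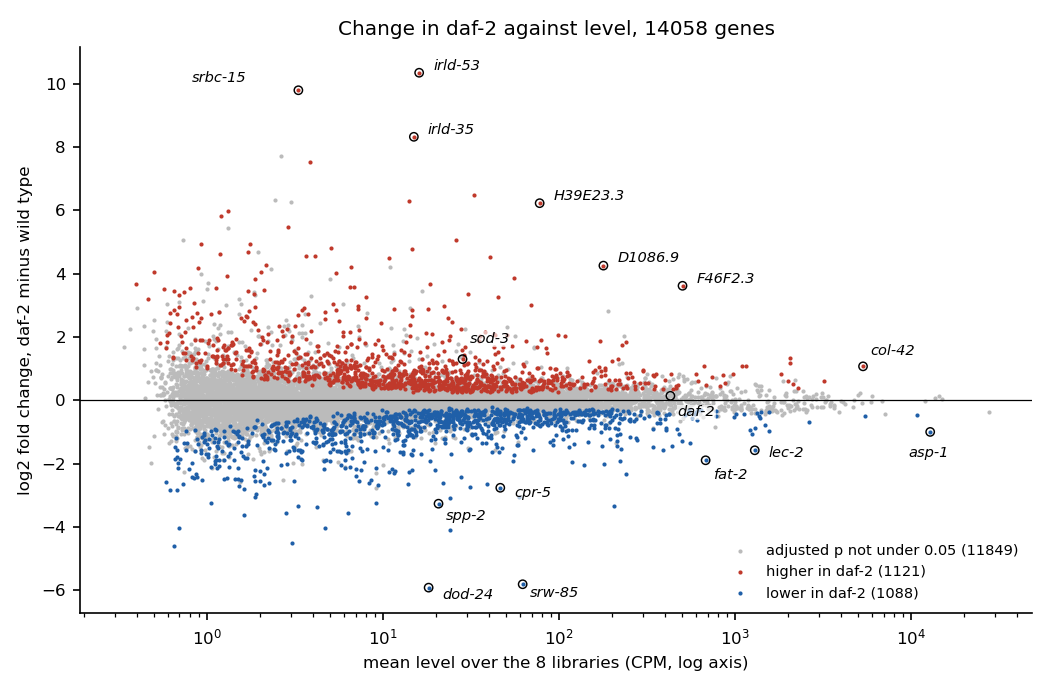
Log2 fold change of daf-2 minus wild type (vertical axis) against the mean level over the 8 libraries in CPM (horizontal log axis) for the 14058 tested genes, with 1121 higher genes in red, 1088 lower genes in blue and the others in grey. Circled genes are named in the text, among them asp-1 at -0.997 and col-42 at 1.07 toward the right end of the axis, and daf-2 lies near 0.

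The mRNAs of the pathway itself were called about as often as those of all genes. In wild-type replicates 1 to 4 daf-2 stood at 541, 289, 242 and 558 CPM and in daf-2 replicates 1 to 4 at 480, 467, 426 and 428 CPM. The groups overlap, and the difference was 0.14 ± 0.22 on the log2 scale (± is the standard error of the fit throughout; adjusted p = 0.692) and -0.04 without wild-type replicate 3. Of 20 genes from the receptor to FoxO and its partners, all tested, 1 was higher and 2 were lower, 15.0% against 15.7% of all tested genes, with a median of 0.07. The lower ones were par-5, for a 14-3-3 protein that binds DAF-16, and sgk-1, for a kinase related to AKT-1, at -0.31 ± 0.10 and -0.38 ± 0.11 (adjusted p = 0.0467 and 0.0298). The call of par-5 was lost without daf-2 replicate 1, 2 or 4 or wild-type replicate 2 or 4, and that of sgk-1 without daf-2 replicate 2 or 4 or wild-type replicate 1 or 3. The gene that rose was pdk-1, the kinase that activates AKT, at 48.0, 37.8, 23.8 and 47.3 CPM in the wild type and 64.9, 63.4, 59.97 and 65.5 in daf-2. All daf-2 libraries lay above all wild-type ones (0.69 ± 0.17, adjusted p = 0.00921). The 3-phosphoinositide kinase gene age-1 (0.17 ± 0.13, adjusted p = 0.384), akt-1 (0.19 ± 0.10, adjusted p = 0.244) and daf-16 itself (0.17 ± 0.15, adjusted p = 0.480) did not pass the test.

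Among the receptor's candidate ligands, 21 of 40 insulin-like peptide genes were expressed enough to test, and 2 were higher (3 without wild-type replicate 3) and 1 was lower (2 without daf-2 replicate 4). That is 14.3% called, near the 15.7% of all tested genes. The insulin-like gene ins-27 rose from 13.2, 17.6, 12.9 and 11.5 CPM to 40.1, 28.4, 36.8 and 30.1 CPM (1.29 ± 0.14, adjusted p = 1.12e-05). Between the triple and the irld mutant it was 1.15 on the same scale. The insulin-like gene ins-5 had few counts, at 0.0681 to 0.358 CPM in the wild type and 0.776 to 3.22 CPM in daf-2 (2.72 ± 0.59, adjusted p = 0.00489).

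Among classical FoxO targets, those known to be induced by DAF-16 were called higher more often than all tested genes. Of 33 tested, mostly known from adult worms, 13 were higher and 3 lower, with a median of 0.25. The higher share was 39.4%, against 7.97% of all tested genes, and the lower share 9.09%, against 7.74%. The mitochondrial superoxide dismutase gene sod-3 stood at 16.6, 24.5, 14.2 and 10.2 CPM in the wild type and at 46.8, 41.9, 37.1 and 35.5 CPM in daf-2. No library of one group reached the other, and the rise was 1.302 ± 0.24 (adjusted p = 0.00155). The catalase gene ctl-1 rose by 0.86 ± 0.17 and its relative ctl-3 by 0.94 ± 0.19, tps-1, which makes trehalose phosphate, by 0.71 ± 0.16, and dao-3, a folate enzyme gene, by 0.96 ± 0.18. The cadmium-responsive gene cdr-2 rose from 8.97 to 14.6 CPM across wild-type libraries to 26.1 to 42.3 CPM (1.57 ± 0.25, adjusted p = 5.77e-04). The glyoxylate cycle gene icl-1 rose by 1.29 ± 0.32 (adjusted p = 0.0134), a call lost when genes of low count were kept in the test.

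The 3 that fell went against the direction the list is named for. The small heat shock gene hsp-12.6 stood at 135, 192, 236 and 107 CPM in the wild type and at 59.0, 59.3, 72.7 and 49.6 CPM in daf-2 (-1.48 ± 0.27, adjusted p = 0.00148). The metallothionein gene mtl-2 fell from 15.5 to 41.5 CPM to 3.80 to 7.38 CPM (-2.21 ± 0.34, adjusted p = 4.70e-04), while its paralog mtl-1 overlapped between the groups, at 448, 497, 483 and 229 CPM against 476, 436, 489 and 441 (0.15 ± 0.19, adjusted p = 0.623), and was at -0.05 without wild-type replicate 4. The third was the ferritin gene ftn-1, named after its values were seen (-0.61 ± 0.20, adjusted p = 0.0491), whose call was lost without any 1 library other than daf-2 replicate 3.

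Of 10 tested genes known as repressed by DAF-16, 2 were higher and 2 lower (20.0% each). The latter are among the most strongly reduced genes of the comparison: dod-24 stood at 28.6, 46.2, 23.4 and 44.98 CPM in the wild type and at 1.06, 0.677, 0.129 and 0.475 CPM in daf-2, a fall of 61.2-fold between the means (-5.92 ± 0.43, adjusted p = 6.56e-07). The related dod-22 fell from 6.26, 9.60, 7.91 and 11.8 CPM to 0.312, 0.739, 0.388 and 0.685 CPM (-4.03 ± 0.34). Both encode secreted-type proteins whose mRNAs are markers of the response to pathogens in adults. In the other direction, dct-16 (1.37 ± 0.31) and dct-18 (0.88 ± 0.15) rose.

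**Figure D2:**
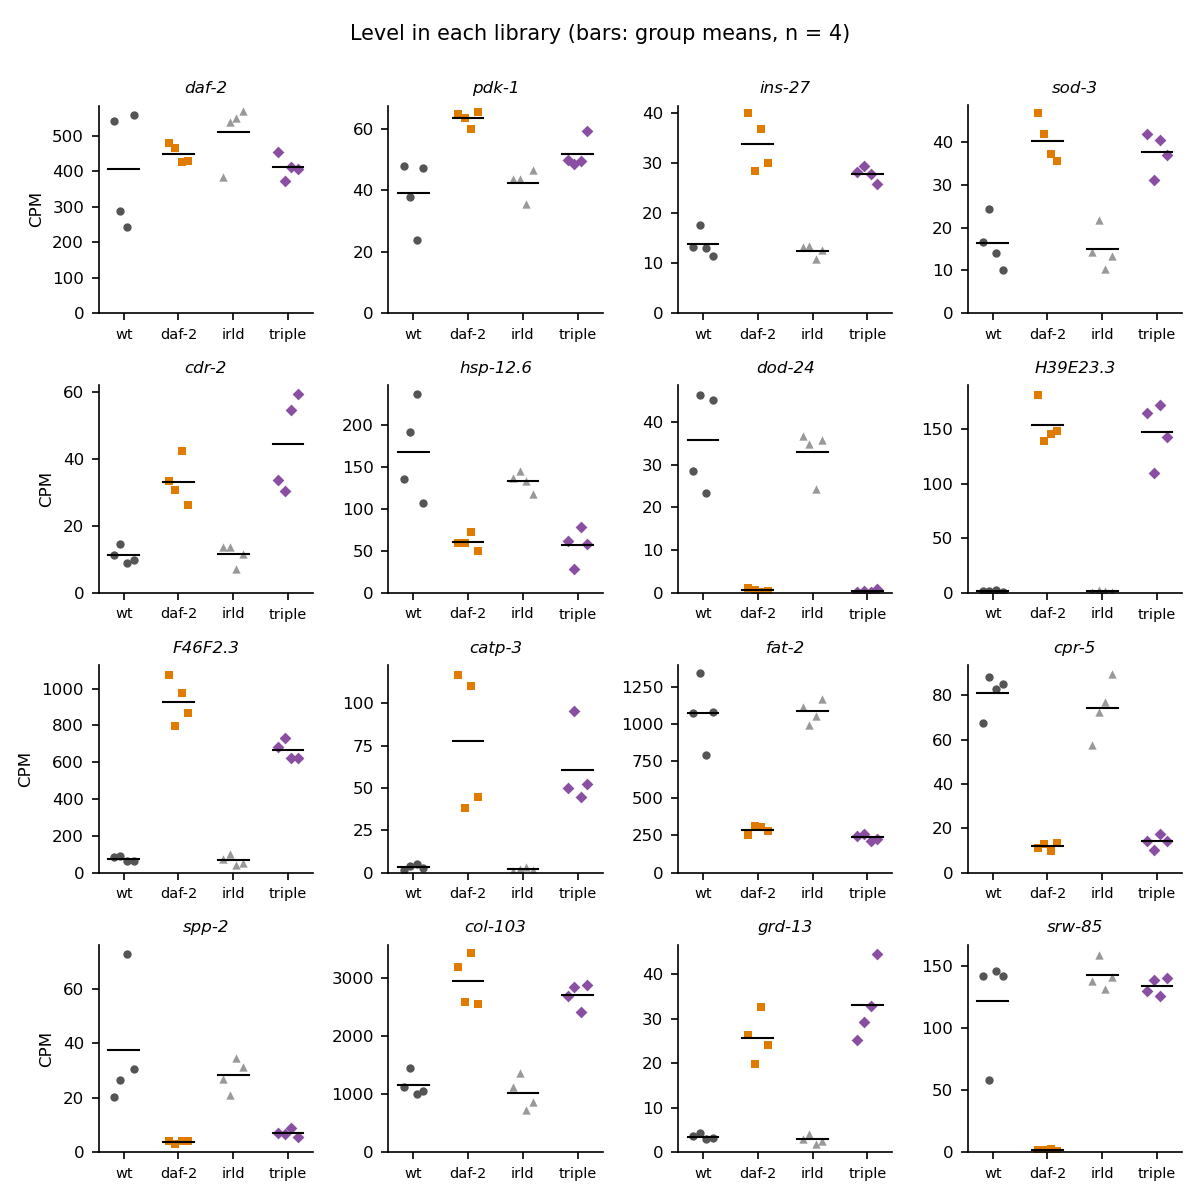
Level in CPM (vertical axes, from 0) of 16 genes in each library of the 4 groups, marked wt, daf-2, irld and triple, with a bar at each group's mean. For sod-3, dod-24 and fat-2 the triple mutant sits with daf-2 and the irld mutant with the wild type, whereas srw-85 is low in daf-2 alone, at 2.19 CPM on average.

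Among the largest rises was that of a gene on chromosome V. H39E23.3 (V:14107811-14110051, WBcel235) stood at 2.11, 2.13, 2.66 and 1.22 CPM in the wild type and at 181, 139.3, 145 and 148 CPM in daf-2. That is 75.6-fold between the means with little spread in either group (6.23 ± 0.28, adjusted p = 1.17e-09). Its close neighbour D1086.9 (V:14104270-14106330) rose from 30.2, 26.3, 10.1 and 4.37 CPM to 427, 323, 358 and 251 CPM (4.26 ± 0.52). On the X chromosome F46F2.3 rose from 83.7, 88.9, 63.9 and 65.9 CPM to 1077, 796, 979 and 866 CPM, with no overlap (3.62 ± 0.23, adjusted p = 4.75e-08). Smaller rises were those of CC8.2 (2.17 ± 0.10) and F38B6.4 (2.24 ± 0.14), at 11.9 to 16.7 and 7.91 to 11.5 CPM in the wild type and 56.8 to 65.4 and 40.1 to 51.5 CPM in daf-2. The gene icmt-1, for a methyltransferase of prenylated proteins, rose from 0.204 to 0.617 CPM to 6.08 to 14.7 CPM, and F56D6.9 from 4.90 to 10.6 to 69.8 to 137 CPM.

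Some of these rises were uneven within the daf-2 group. The P-type cation pump gene catp-3 stood at 1.497, 4.18, 5.18 and 2.51 CPM in the wild type and at 117, 38.5, 110 and 44.8 CPM in daf-2, high in replicates 1 and 3 (4.53 ± 0.49, adjusted p = 2.73e-05). The spread was wider for F57H12.6, at 47.1, 4.43, 208 and 3.06 CPM against 0.206 to 1.53 CPM in the wild type (6.50 ± 1.54, adjusted p = 0.0114). For fip-6, a fungus-induced protein gene, the daf-2 libraries held 8.41, 5.79, 23.7 and 3.16 CPM against 0.0716 to 0.960 CPM (4.04 ± 0.81, adjusted p = 0.00379). In 34 of the 1121 higher genes both replicates 1 and 3 lay over 2-fold above both 2 and 4, a pattern that 255 of all 14058 tested genes showed. The reverse, replicates 2 and 4 over 2-fold above 1 and 3, was found in 19 of the 1088 lower genes and in 353 of all 14058. The labels give no batch for these libraries, and what sets replicates 1 and 3 apart was not tested.

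At the other end, F47B8.10 fell from 46.8, 54.04, 44.8 and 36.2 CPM to 1.87, 1.91, 5.95 and 0.949 CPM (-4.11 ± 0.46, adjusted p = 3.21e-05). C17H12.8 fell from 11.5 to 20.6 CPM to 1.36 to 3.69 CPM (-2.67 ± 0.30). The wild-type libraries were themselves split for F21C10.9, at 26.3, 28.4, 7.04 and 4.58 CPM, all above the 1.06, 3.14, 1.49 and 1.32 CPM of daf-2 (-3.24 ± 0.64, adjusted p = 0.00341).

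Among called genes for cathepsins, saposin-like proteins, aspartyl proteases and autophagy, more were lower than higher. This was not so for lysozymes, lysosomal lipases and V-ATPase subunits. Of 12 tested cysteine cathepsin genes 8 were lower (66.7%, against 7.74% of all tested genes) and none higher, with a median of -0.63. The lower count was 5 when daf-2 replicate 2, daf-2 replicate 4 or wild-type replicate 3 was left out, the last with 1 member higher. The cathepsin B-like gene cpr-5 stood at 67.6, 88.3, 82.9 and 84.95 CPM in the wild type and at 11.3, 12.99, 9.77 and 13.6 CPM in daf-2, 6.79-fold lower between the means (-2.76 ± 0.17, adjusted p = 4.06e-08). Its relative cpr-1 fell from 40.8, 44.8, 95.7 and 35.96 CPM to 8.98, 9.05, 5.63 and 8.75 CPM (-2.74 ± 0.43). The low-count cpr-8 fell by 2.55 ± 0.38, and the cathepsin F-like gene tag-196 by 0.67 ± 0.11.

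The products of saposin-like genes resemble membrane-lysing proteins of the gut. Of 23 tested, 13 were lower (56.5%) and 2 higher (4 without daf-2 replicate 4), with a median of -0.48. The gene spp-2 stood at 20.2, 26.5, 72.6 and 30.7 CPM in the wild type and at 4.11, 3.08, 4.33 and 4.06 CPM in daf-2 (-3.27 ± 0.34, adjusted p = 1.86e-05). Its neighbour spp-6 fell by 3.54 ± 0.33 and spp-3 also fell (-1.105 ± 0.12), and spp-2, spp-3 and spp-6 lie with spp-4, spp-5 and T08A9.13 in a run of 6 adjacent tested genes on X that were all lower. On chromosome IV, spp-18 fell from 51.7 to 85.8 CPM to 21.1 to 26.1 CPM (-1.46 ± 0.14).

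The gene asp-1, for a cathepsin D-like aspartyl protease of the intestine, stood at 17640, 22530, 11470 and 16540 CPM in the wild type and at 10160, 6729, 9999 and 7281 CPM in daf-2. The groups did not overlap, though daf-2 replicate 1 was close to wild-type replicate 3 (-0.997 ± 0.19, adjusted p = 0.00217). This call was lost when the replicate number was added to a fit of the 8 libraries alone. Of 12 tested aspartyl protease genes, 5 were lower (41.7%) and none higher (median -0.37), or 3 lower without wild-type replicate 2 or daf-2 replicate 2. Together the 18 in the files, tested or not, held 22550 to 40780 CPM in wild-type and 15680 to 22340 CPM in daf-2 libraries. The relative asp-14 fell from 270, 433, 176 and 280 CPM to 78.2, 65.6, 79.8 and 65.9 CPM (-2.003 ± 0.23). A smaller fall was that of asp-3, by 0.67 ± 0.14 (adjusted p = 0.00483), a call lost when only the 8 libraries were fitted, with or without the replicate number.

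Of 27 genes of autophagy, all tested, 10 were lower and none higher (median -0.27), or 5 lower without daf-2 replicate 2. The changes were small: lgg-2, one of the worm's Atg8-like genes, fell from 427, 528, 445 and 463 CPM to 279, 287, 301 and 257 CPM (-0.73 ± 0.09, adjusted p = 3.75e-05), and epg-9, for a partner of the initiating kinase, by 0.64 ± 0.11. The V-ATPase acidifies the lysosome, and none of its 20 tested subunit genes passed the test (median 0.04), although 2 were higher without wild-type replicate 2 and 2 lower without wild-type replicate 3.

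Lipases of the lysosome did not move as one. The gene lipl-4, for a lysosomal acid lipase known from long-lived worms, rose from 0.0681, 0.137, 0.266 and 0.143 CPM to 2.18, 2.15, 2.85 and 2.69 CPM (3.94 ± 0.42, adjusted p = 1.34e-05). It was near the detection limit in the wild type. The gene lipl-5 fell from 184, 192, 180 and 194 CPM to 57.5, 35.8, 59.7 and 41.3 CPM (-1.95 ± 0.16, adjusted p = 7.67e-07). The relative lipl-7 rose by 0.49 ± 0.11. The lysozyme genes lys-1 (1.03 ± 0.22) and lys-2 (2.03 ± 0.31) rose, and none of the 8 tested lysozyme genes was lower.

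**Figure D3:**
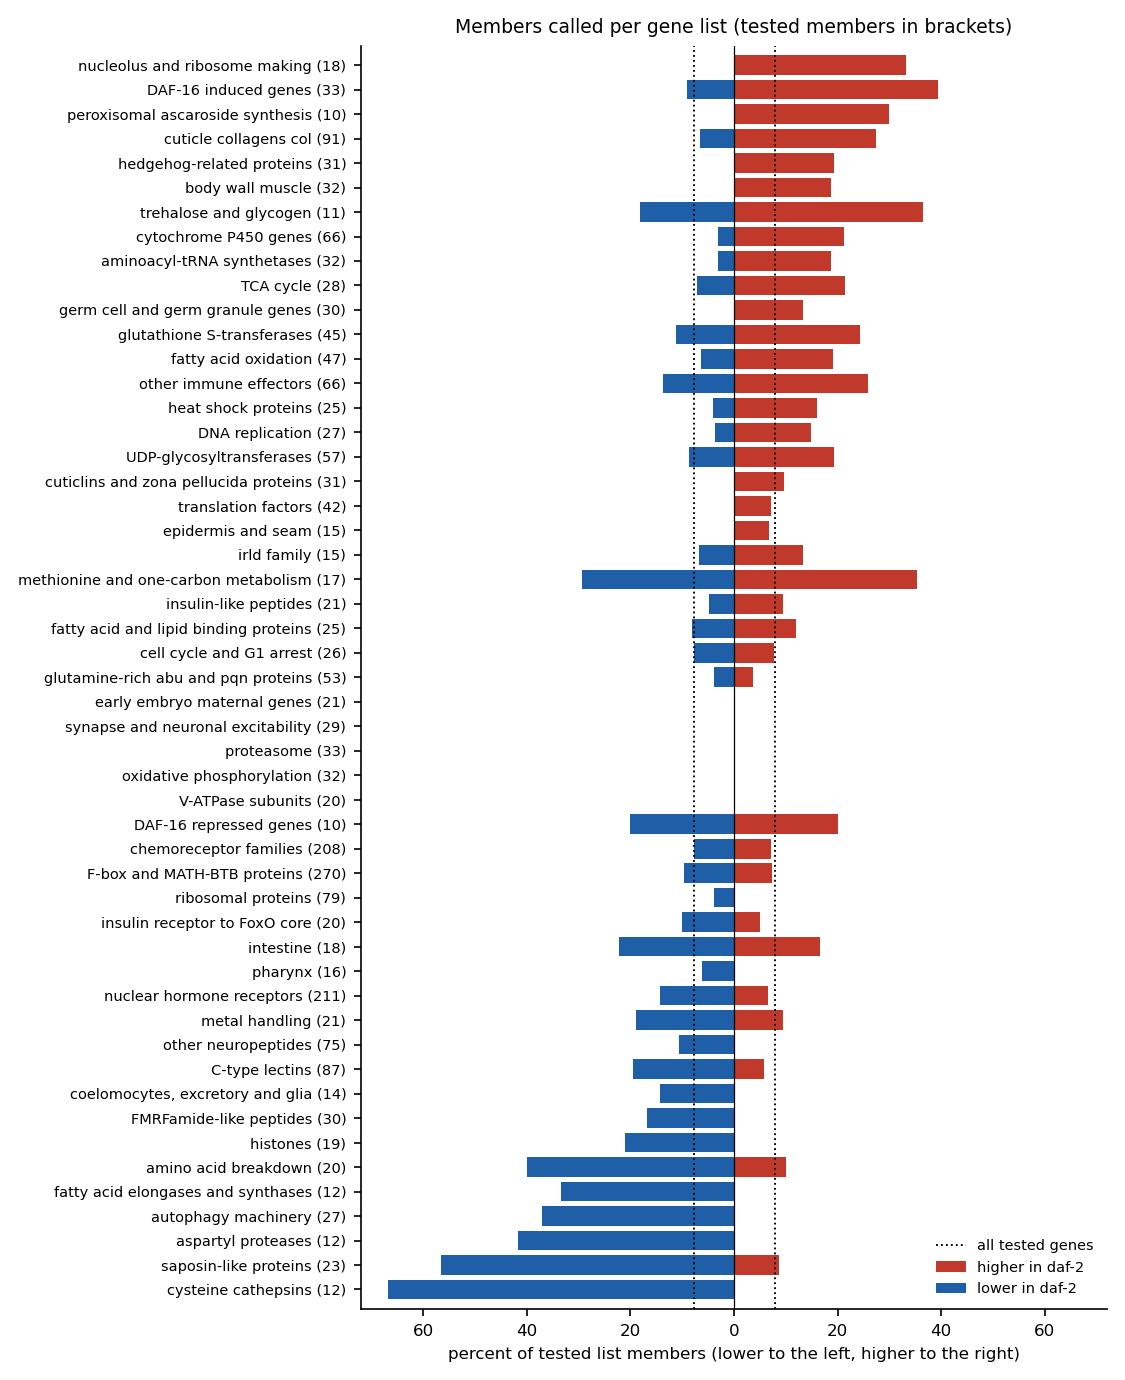
Percent of the tested members of each gene list called higher (red, to the right) or lower (blue, to the left) in daf-2, with the number tested in brackets and dotted lines at the 7.97% higher and 7.74% lower of all tested genes. Cysteine cathepsins and saposin-like proteins reach farthest to the left and DAF-16 induced genes farthest to the right among the lists drawn, those with at least 10 tested genes.

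Among genes of the cuticle, called collagens were mostly higher. Of 91 tested col collagen genes, of 159 in the files, 25 were higher (27.5%) and 6 lower, with a median of 0.52. The summed level of all 159 was 11940 to 16440 CPM in wild-type libraries and 20910 to 30530 CPM in daf-2 ones. The collagen col-42 stood at 3248, 4196, 3618 and 2631 CPM in the wild type and at 7963, 6538, 8065 and 6277 CPM in daf-2, 2.11-fold between the means (1.07 ± 0.17, adjusted p = 4.42e-04). The collagens col-103 (1.34 ± 0.18) and col-98 (1.17 ± 0.18) passed from 998 to 1452 and 972 to 1566 CPM to 2550 to 3427 and 2472 to 3241 CPM. Among members with fewer counts, col-166 was up by 1.75 ± 0.19, col-124 by 2.36 ± 0.28, and col-50 from 0.931 to 4.02 CPM to 30.2 to 38.7 CPM (3.69 ± 0.35, adjusted p = 6.85e-06). Close paralogs may share reads. Of 53 tested glutamine-rich abu and pqn genes, 2 were higher and 2 lower, 7.55% called against 15.7% of all tested genes. Without wild-type replicate 4 there were 4 higher, and without daf-2 replicate 1 or 3 there was 1. None was lower when daf-2 replicate 2 or 3, or wild-type replicate 1 or 4, was left out, and 1 was lower without daf-2 replicate 1 or 4. Of 31 tested cuticlin and zona pellucida genes, 3 were higher and none lower, 9.68% called against 15.7% of all tested genes. There were 5 higher when daf-2 replicate 2, daf-2 replicate 4 or wild-type replicate 4 was left out. The adult-stage collagen gene col-7 fell from 1.37 to 1.93 CPM to 0.422 to 0.873 CPM.

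Hedgehog-related proteins are secreted proteins, many of them made by the epidermis and tied to the molt. Of 61 genes in the files 31 were tested, and 6 were higher (19.4%, against 7.97% of all tested genes) and none lower, with a median of 1.04. The ground-like gene grd-13 stood at 3.61, 4.25, 3.06 and 3.15 CPM in the wild type and at 26.4, 19.9, 32.7 and 24.1 CPM in daf-2 (2.87 ± 0.23, adjusted p = 8.51e-07). Its relative grd-3 rose from 25.18 to 56.9 CPM to 159 to 194 CPM and grd-10 from 28.6 to 36.7 CPM to 104.2 to 158 CPM. These 3 lie in a run of 5 adjacent tested genes on chromosome IV that were all higher. On chromosome V, grd-5 rose by 2.101 ± 0.24. Of 27 tested patched-related genes 3 were higher and 1 lower, 14.8% called against 15.7% of all tested genes. The lower one, ptr-24, fell slightly (-0.54 ± 0.10). Of 22 tested genes of molting and developmental timing 4 were higher (18.2%) and none lower. The gene blmp-1, for a transcription factor of the molting cycle, rose from 17.8, 18.5, 8.50 and 16.8 CPM to 30.4, 28.99, 28.5 and 27.4 CPM (0.90 ± 0.19). Of 11 tested body-shape collagen genes 3 were higher and 1 lower (36.4% called), the lower one at -3.05. Among them dpy-10 rose from 1.00 to 3.09 CPM to 4.01 to 6.99 CPM.

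**Figure D4:**
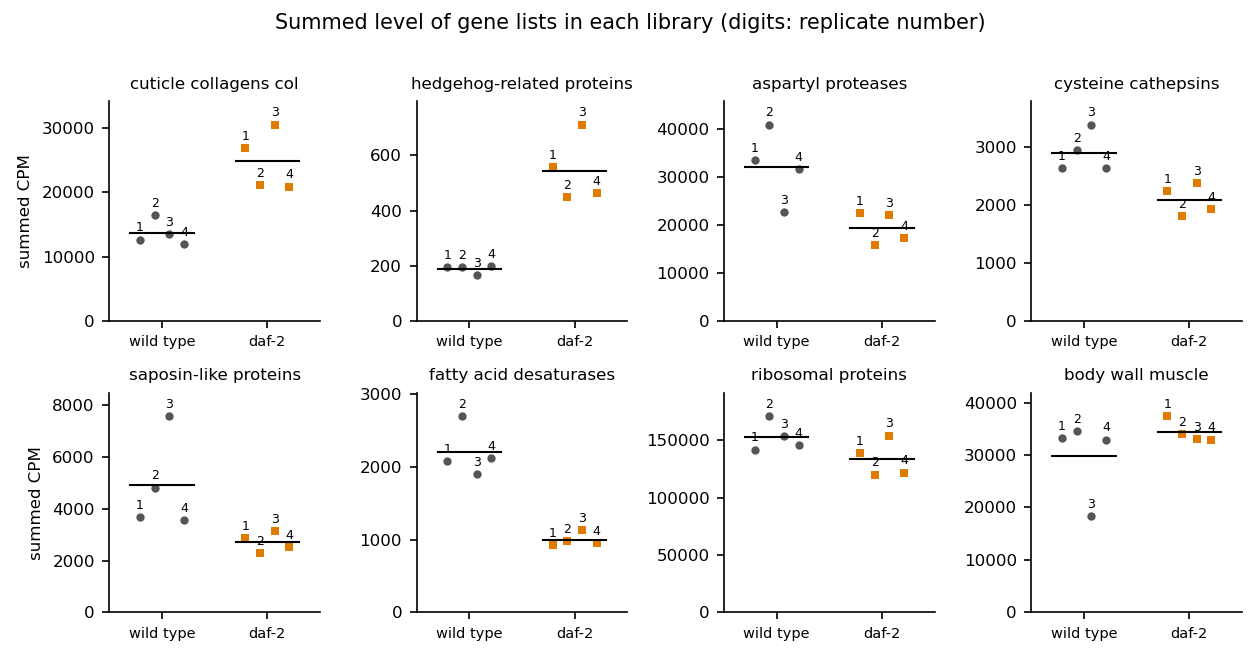
Summed level in CPM (vertical axes, from 0) of 8 gene lists in each wild-type and daf-2 library, numbered by replicate, with bars at group means. The collagen, hedgehog-related, cathepsin, saposin-like, aspartyl protease and desaturase sums do not overlap between the groups, while those of ribosomal proteins and body wall muscle do, the latter with wild-type replicate 3 at 18380 CPM.

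Fatty acid desaturases put the double bonds into the worm's unsaturated fats, and the mRNAs of 3 of them, fat-2, fat-3 and fat-6, were lower. The gene fat-2, for the desaturase that makes linoleic acid, stood at 1071, 1340, 794 and 1079 CPM in the wild type and at 253, 316, 307 and 277 CPM in daf-2. The fall was 3.715-fold between the means (-1.89 ± 0.14, adjusted p = 3.71e-07), and the triple minus irld difference was -2.19. The gene fat-3, for the next desaturase, fell from 284, 381, 294 and 287 CPM to 121.5, 114, 117 and 103.8 CPM (-1.45 ± 0.13), and the stearate desaturase gene fat-6 by 1.43 ± 0.24. Of 6 tested desaturase genes 3 were lower and 1 higher (66.7% called). The higher count was 0 without daf-2 replicate 1, 3 or 4 or wild-type replicate 1, 2 or 4. Of 12 tested elongase and synthase genes 4 were lower (33.3%, against 7.74% of all tested genes) and none higher. Only 2 were lower when wild-type replicate 2 or daf-2 replicate 2 or 4 was left out. The elongase gene elo-5, which serves branched-chain fatty acids, fell from 3.47, 3.29, 1.86 and 3.51 CPM to 0.0623, 0.246, 0.453 and 0.211 CPM (-3.61 ± 0.49, adjusted p = 1.09e-04), and elo-2 by 0.76 ± 0.11.

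Genes of fatty acid breakdown were higher more often than lower: of 47 tested, 9 were higher (19.1%) and 3 lower, with a median of 0.20. The acyl-CoA synthetase gene acs-21 (0.74 ± 0.13) and the carnitine palmitoyltransferase gene cpt-6 (0.77 ± 0.14) rose. The hydratase gene ech-7 fell from 68.5, 82.8, 48.0 and 70.3 CPM to 9.41, 11.02, 12.5 and 10.1 CPM (-2.65 ± 0.15, adjusted p = 2.35e-08), and the dehydrogenase gene acdh-9 fell by 0.61 ± 0.10. In the peroxisome, where the side chains of ascaroside pheromones are shortened, 3 of 10 genes were higher (30.0%) and none lower. Of these, acox-1.4 rose from 3.13, 5.42, 6.11 and 5.23 CPM to 15.0, 14.4, 15.98 and 14.4 CPM (1.59 ± 0.17) and acox-1.5 by 1.43 ± 0.30. The peroxisomal transporter gene pmp-5 rose by 0.93 ± 0.12, and dhs-3, for a lipid droplet protein, by 0.89 ± 0.16.

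Among carriers of lipids, the fatty acid and retinol binding protein gene far-1 rose from 1159, 1651, 1163 and 1247 CPM to 2457, 2078, 2686 and 2151 CPM (0.84 ± 0.17, adjusted p = 0.00281). Its relative far-6 fell from 31.3 to 40.9 CPM to 24.0 to 25.7 CPM (-0.53 ± 0.10). Among 25 tested lipid-binding genes, 3 were higher and 2 lower, 20.0% called against 15.7% of all tested genes. Outside lipid transport, the galectin gene lec-2 fell from 2411, 1702, 1240 and 2386 CPM to 675, 669, 631 and 618 CPM (-1.58 ± 0.18, adjusted p = 2.62e-05), as did F26F12.3, from 1861, 1806, 1219 and 1858 CPM to 894, 790, 886 and 634 CPM (-1.07 ± 0.14).

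In sugar metabolism the trehalose genes changed on both sides. The trehalase genes tre-3 and tre-5, for enzymes that split trehalose into glucose, fell, tre-3 from 68.6, 97.8, 84.2 and 91.5 CPM to 26.9, 33.98, 28.3 and 38.9 CPM (-1.42 ± 0.13) and tre-5 from 38.8, 34.5, 30.4 and 26.7 CPM to 6.17, 7.63, 8.28 and 6.12 CPM (-2.21 ± 0.20, adjusted p = 2.94e-06). The synthase gene tps-1 rose, as given above. In all, 4 of 11 genes of trehalose and glycogen were higher (36.4%) and 2 lower (18.2%). Of 28 genes around the TCA cycle, 6 were higher (21.4%, against 7.97% of all tested genes) and 2 lower (7.14%, against 7.74%). Without daf-2 replicate 3 or 4, 3 were higher, and 1 was lower without wild-type replicate 2 or 4 or any 1 daf-2 library. Mitochondrial aconitase, aco-2, rose from 320, 363, 234 and 327 CPM to 602, 517, 556 and 540 CPM (0.83 ± 0.12, adjusted p = 1.26e-04), malate dehydrogenase, mdh-2, by 0.65 ± 0.08, and isocitrate dehydrogenase, idh-1, by 0.62 ± 0.13. None of 32 tested oxidative phosphorylation genes passed the test (median -0.11), and 1 did, as higher, without wild-type replicate 2.

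Of 20 genes of amino acid breakdown, all tested, 8 were lower (40.0%), 2 were higher and 10 did not pass the test, with a median of -0.40. Their summed levels overlapped, at 7196 to 11180 CPM in the wild type and 5991 to 8042 CPM in daf-2. The higher count was 0 without daf-2 replicate 1 or 3 and 1 without wild-type replicate 1. The tyrosine aminotransferase gene tatn-1 stood at 713, 550, 455 and 603 CPM in the wild type and at 204, 184, 278 and 111 CPM in daf-2 (-1.58 ± 0.24, adjusted p = 3.00e-04). The gene hgo-1, for a later enzyme of the same pathway, fell by 0.63 ± 0.12. The ornithine aminotransferase gene oatr-1 fell by 0.94 ± 0.18, and bcat-1, for the first step of branched-chain amino acid breakdown, by 0.66 ± 0.14.

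Methionine and one-carbon genes changed in both directions, with 6 higher (35.3%) and 5 lower (29.4%) of 17 tested. The lower count fell to 2 without wild-type replicate 2 or 4 or without daf-2 replicate 1, 2 or 4. The methionine synthase gene metr-1 rose from 15.0, 12.55, 10.8 and 14.5 CPM to 27.1, 20.7, 31.2 and 27.8 CPM (1.01 ± 0.16, adjusted p = 4.70e-04). The reductase gene that supplies its folate, mthf-1, rose by 0.70 ± 0.11. The S-adenosylmethionine synthetase gene sams-5 rose from 0.215 to 0.891 CPM to 2.53 to 3.62 CPM (2.48 ± 0.34). The gene ahcy-1, for the enzyme that clears S-adenosylhomocysteine, fell by 0.87 ± 0.19 (adjusted p = 0.00558), with daf-2 replicate 3 at 1090 CPM inside the wild-type range. Its call was lost when the replicate number was added to a fit of the 8 libraries alone.

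Several gene lists cover the machinery that makes protein. Of 18 genes of the nucleolus and ribosome making, 6 were higher (33.3%) and none lower, with a median of 0.32. The fibrillarin gene fib-1, for the RNA methyltransferase of the nucleolus, stood at 118, 89.2, 97.3 and 130 CPM in the wild type and at 212, 162, 238 and 198 CPM in daf-2 (0.90 ± 0.13, adjusted p = 2.14e-04). Its partner nol-56 rose by 0.65 ± 0.11. Of 32 tested genes for aminoacyl-tRNA synthetases, which load tRNAs with amino acids, 6 were higher (18.8%) and 1 lower, with 2 lower without wild-type replicate 3 and none lower without any 1 other library except daf-2 replicate 3. Of 42 tested translation factor genes 3 were higher and none lower, 7.14% called against 15.7% of all tested genes (median -0.01). Of these none was higher without daf-2 replicate 1 or 3, and 1 was without daf-2 replicate 4 or wild-type replicate 3, while 1 gene was lower without wild-type replicate 1. The 79 tested ribosomal protein genes had a median of -0.25, with 3 lower (3.8%, against 7.74% of all tested genes) and none higher. That count was 0 when wild-type replicate 2 or daf-2 replicate 2 or 4 was left out, 1 without daf-2 replicate 1, 5 to 7 without wild-type replicate 1, wild-type replicate 4 or daf-2 replicate 3, and 1 gene was higher without wild-type replicate 3. The sums over all 81 ribosomal protein genes in the files overlapped, at 141800 to 170800 CPM in the wild type and 119900 to 154100 CPM in daf-2. None of 33 proteasome genes passed the test (median 0.05), and 1 did, as higher, without wild-type replicate 1.

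In each of the detoxification families below more genes were higher than lower in the fit of all libraries. Of 66 tested cytochrome P450 genes 14 were higher (21.2%) and 2 lower, with a median of 0.67. The higher count was 7 without daf-2 replicate 3, 8 without daf-2 replicate 1, and 9 without wild-type replicate 1 or 4, while the lower count was 1 without wild-type replicate 2 or 3 or any 1 daf-2 library. The neighbours cyp-33C1 and cyp-33C2 rose from 1.395 to 3.81 and 1.26 to 2.22 CPM to 10.6 to 15.2 and 11.6 to 15.2 CPM, by 2.59 ± 0.29 and 2.97 ± 0.35. The related cyp-34A5 and cyp-34A6 rose by 1.35 ± 0.22 and 1.45 ± 0.21.

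Of 57 tested UDP-glycosyltransferase genes 11 were higher (19.3%) and 5 lower (8.77%, with 3 lower without daf-2 replicate 1). The gene ugt-6 rose from 15.2, 20.0, 13.9 and 10.8 CPM to 59.0, 47.5, 60.4 and 53.05 CPM (1.87 ± 0.17, adjusted p = 2.06e-06) and ugt-2 by 0.95 ± 0.15, whereas ugt-49 fell by 0.77 ± 0.12. Of 45 tested glutathione S-transferase genes 11 were higher (24.4%) and 5 lower (11.1%). Without wild-type replicate 4 there were 5 higher and 6 lower, without wild-type replicate 1 there were 5 of each, and without daf-2 replicate 3 there were 5 higher and 4 lower. The higher count was 7 when daf-2 replicate 1 or wild-type replicate 2 was left out. The lower count was 3 without wild-type replicate 2 and without daf-2 replicate 1, 2 or 4. The calls of gst-3 (0.73 ± 0.14) and gst-36 (0.70 ± 0.10), both higher, and of gst-27 (-1.41 ± 0.14) and gst-22 (-1.42 ± 0.22), both lower, held without any 1 library. In metal handling the ferritin gene ftn-2 fell from 416, 494, 440 and 434 CPM to 248, 243, 231 and 240 CPM (-0.89 ± 0.11), and the iron and manganese importer gene smf-3 by 0.82 ± 0.17. Of 21 tested metal genes 4 were lower and 2 higher (1 higher without daf-2 replicate 3 or wild-type replicate 1, 3 or 4).

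Some chaperones rose where hsp-12.6 fell. The heat-inducible chaperone gene hsp-70 rose from 2.93, 1.37, 1.86 and 2.58 CPM to 5.61, 8.68, 5.89 and 5.54 CPM (1.55 ± 0.30), and the mitochondrial chaperonin gene hsp-60 by 0.81 ± 0.17. Of 25 tested heat shock genes 4 were higher and 1 lower, with 2 higher when daf-2 replicate 1 or 3 or wild-type replicate 3 was left out. The share called was 20.0%, against 15.7% of all tested genes.

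Among called C-type lectin genes more were lower than higher. Of 265 C-type lectin genes in the files 87 were tested, and 17 were lower (19.5%), 5 were higher (8 without wild-type replicate 2) and 65 did not pass the test, with a median of -0.23. The lectin gene clec-62 fell from 45.8, 58.7, 47.9 and 46.7 CPM to 24.8, 20.6, 26.6 and 26.3 CPM (-1.02 ± 0.12, adjusted p = 2.08e-05). Larger falls were found for clec-7 (-2.54 ± 0.39), clec-166 (-2.18 ± 0.30) and clec-10 (-1.66 ± 0.28). Of 66 tested genes in other effector families (fip, fipr, thn, irg, abf, dct, dod, cld and pals) 17 were higher and 9 lower. The shares were 25.8% and 13.6%, against 7.97% and 7.74% of all tested genes. The lower ones include dod-24 and dod-22, already counted above among the genes repressed by DAF-16. The gene pals-26, of a family linked to the response to intracellular pathogens, rose from 6.398, 5.01, 5.71 and 6.52 CPM to 25.6, 18.1, 22.4 and 18.5 CPM (1.84 ± 0.18, adjusted p = 4.26e-06).

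Among regulators, nuclear hormone receptor genes were more often lower. Of 211 tested, 30 were lower (14.2%) and 14 higher, with a median of -0.08, and the higher count was 9 without daf-2 replicate 1 or 3. The gene nhr-18 fell from 94.7, 126, 109 and 99.7 CPM to 61.96, 65.2, 66.5 and 61.01 CPM (-0.76 ± 0.09, adjusted p = 4.66e-05) and sits in a run of 5 adjacent receptor genes on chromosome V that were all lower. The gene nhr-221 fell by 0.94 ± 0.15, while nhr-246 (2.04 ± 0.30) and nhr-263 (1.59 ± 0.20) rose. F-box and MATH-BTB genes, for substrate receptors of ubiquitin ligases, had shares near those of all genes, with 20 higher and 26 lower of 270 tested. The higher count was 12 without daf-2 replicate 1 and 13 without daf-2 replicate 4. Within them fbxa-24 fell from 468, 591, 484 and 474 CPM to 173, 195, 193 and 167 CPM (-1.47 ± 0.11, adjusted p = 6.28e-07), and math-38 (-2.14 ± 0.25) and fbxa-152 (-1.01 ± 0.10) fell as well.

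Of the neuronal lists, none of 29 synapse and excitability genes passed the test (median -0.17), although 3 were lower without wild-type replicate 3 and 1 without daf-2 replicate 4, and their sums overlapped, at 3734 to 5645 CPM in the wild type and 4183 to 4366 CPM in daf-2. Of 75 tested genes of other neuropeptides 8 were lower (10.7%) and none higher, and the lower count was 2, 4, 3 and 5 without wild-type replicate 2, wild-type replicate 3, daf-2 replicate 1 and daf-2 replicate 2, and 13 without wild-type replicate 4. Of 30 tested FMRFamide-like peptide genes 5 were lower (16.7%, against 7.74% of all tested genes) and none higher. The lower count was 1 when daf-2 replicate 1 or 2 or wild-type replicate 2 or 3 was left out. All 30 had a negative difference, called or not, with a median of -0.43. The sums over all 31 in the files were 1444 to 2325 CPM in the wild type and 1202 to 1433 CPM in daf-2. The gene flp-10 fell from 32.9, 41.9, 38.8 and 35.2 CPM to 24.0, 20.4, 30.7 and 17.4 CPM (-0.69 ± 0.14, adjusted p = 0.00312). Chemoreceptor genes, of which 208 of 1632 were tested, had 15 higher and 16 lower, near the share of all genes, with 9 higher without daf-2 replicate 3 and 8 lower without daf-2 replicate 1. The receptor gene srv-4 fell from 5.42 to 11.03 CPM to 0.475 to 1.03 CPM (-3.36 ± 0.37), and srbc-20 rose from 1.303 to 2.72 CPM to 5.48 to 7.31 CPM (1.73 ± 0.20).

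Chromosome V held the largest share of called genes of the 6 nuclear chromosomes, 18.7%, against 13.5% to 15.8% on the others. Within it, the 500 kb from V:2000001 to V:2500000 (WBcel235) had 22 higher and 7 lower of 77 tested genes, 37.7% called, where the median of 200 such windows with at least 20 tested genes was 15.45% and the next highest was 32.1%. The gene daf-2 itself (III:2994514-3040846) lies across the border between windows on chromosome III. The window III:2500001 to III:3000000 had 3 higher and 3 lower of 63 (9.52% called). In the window III:3000001 to III:3500000, which holds most of the gene, 5 were higher and 7 lower of 53 (22.6%). The windows were drawn after the values were seen. Of the 29 called genes in the V window, 25 differed in the same direction where the irld alleles were present.

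In and beside that window lie genes whose daf-2 difference was not the same with the irld alleles. The interaction, the triple minus the irld mutant minus the daf-2 minus wild-type difference, was called for 9 genes, 0.064% of those tested, named here because they passed that test. The gene irld-53 (V:2348215-2350325), of the family of insulin and EGF receptor-like proteins, had 1 count over the 4 wild-type libraries and 2152 over the 4 daf-2 libraries, a ratio of 1880 with a 95% counting interval of 337 to 74300. In the irld and triple mutants it had 9 counts each. For irld-35 (V:2456176-2458286) the counts were 5 and 2005, a ratio of 350 (150 to 1080), with 8 in the irld and 16 in the triple mutant. Per library irld-35 stood at 0.0681, 0.0686, 0.133 and 0.0716 CPM in the wild type and at 27.6, 36.8, 23.9 and 31.4 CPM in daf-2, and irld-53 at 32.9, 37.6, 25.04 and 33.1 CPM in daf-2. The interactions were -7.66 ± 0.88 and -10.67 ± 1.202 (adjusted p = 4.52e-04 for both). The annotated genes have equal lengths, and reads with up to 2 places in the genome were kept at 1 of them, so how these counts divide between the pair is uncertain. Beside irld-53, srbc-15 had 0 counts in the wild type and 442 in daf-2, at least 129-fold higher against a floor of 3 counts over the group. It had 1 count in the irld and 3 in the triple mutant, so this rise did not recur there, though srbc-15 is not among the 9 interaction genes.

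Adjacent to irld-53 and irld-35 lie clec-209 and F56A4.2, which bear 1 name in Ensembl and are likewise uncertain as a pair. In daf-2 clec-209 rose from 20.96, 31.2, 16.08 and 15.5 CPM to 46.2, 46.2, 39.4 and 52.7 CPM (1.14 ± 0.25) and F56A4.2 by 1.04 ± 0.26. In the triple mutant they averaged 1.53 ± 0.640 and 1.35 ± 0.559 CPM against 18.9 ± 4.48 and 18.1 ± 3.66 CPM in the irld mutant (SD, n = 4), so the difference had the opposite sign there (interactions -4.72 ± 0.39 and -4.75 ± 0.40). C13B7.6 (1.197 ± 0.11) and Y45G12C.16 (1.39 ± 0.12) rose in daf-2 from 4.85 to 5.87 and 4.87 to 6.02 CPM to 11.8 to 13.5 and 13.1 to 14.04 CPM, but stood at 6.15 and 6.47 CPM in the triple mutant. The glycosyltransferase gene ugt-64 rose in daf-2 (1.11 ± 0.13) and was at 9.10 CPM in the irld mutant and 8.86 CPM in the triple mutant. The family of irld genes as a whole had 15 of 66 members tested, with 2 higher and 1 lower, and the lower count was 0 without any 1 library other than daf-2 replicate 1. Its share called was 20.0%, against 15.7% of all tested genes. The genes irld-39 and irld-52, altered in the other strains, had 1 to 10 counts per library and were not tested.

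The chemoreceptor gene srw-85, near the far end of chromosome V (V:19429387-19431136), showed the reverse. It stood at 142, 58.1, 146 and 142 CPM in the wild type and at 2.31, 2.22, 2.98 and 1.27 CPM in daf-2, 55.8-fold lower between the means (-5.81 ± 0.30, adjusted p = 6.49e-09). The irld mutant held 142.6 ± 11.8 CPM and the triple mutant 133.6 ± 7.11 CPM (SD, n = 4), an interaction of 5.72 ± 0.37 (adjusted p = 9.19e-07). The last of the 9, ttr-50, a transthyretin-related gene, did not differ past the threshold in daf-2 (0.32 ± 0.26, adjusted p = 0.433) but averaged 48.2 CPM in the triple and 7.70 CPM in the irld mutant.

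**Figure D5:**
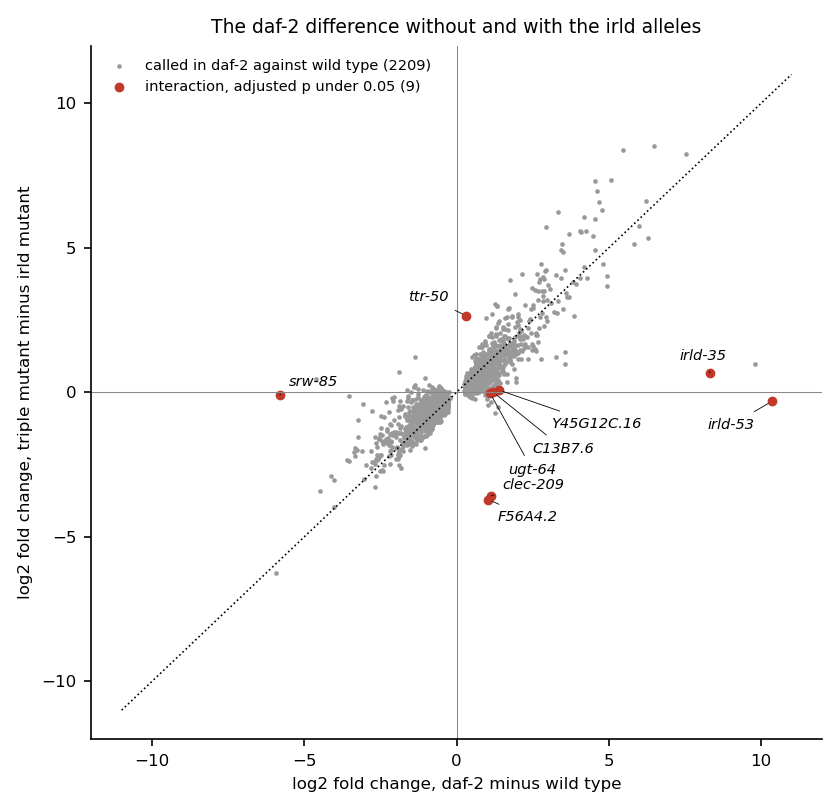
Log2 fold change of the triple minus the irld mutant (vertical axis) against that of daf-2 minus wild type (horizontal axis) for the 2209 genes called in daf-2, with the 9 genes of the interaction in red and a dotted line of equal change. Most points follow the dotted line, while irld-53, irld-35 and srw-85 lie at large changes in daf-2 and near 0 on the other axis.

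Markers of tissues and stages give the makeup of these larvae. In bulk RNA, fewer cells of a type and less RNA per cell cannot be told apart. Of 32 genes of body wall muscle 6 were higher (18.8%, against 7.97% of all tested genes) and none lower, with a median of 0.32. There were 10 higher without wild-type replicate 2 and 1 lower without wild-type replicate 1. The summed level of these 32 genes ran from 18380 to 34570 CPM in the wild type and from 32920 to 37360 CPM in daf-2. The muscle immunoglobulin-like gene dim-1 rose from 84.4, 87.6, 76.5 and 84.5 CPM to 144, 126, 171 and 135 CPM (0.79 ± 0.12). Of 15 tested epidermis and seam genes only grd-10 was higher and none lower (6.67% called). The sums over all 17 in the files were 1289 to 2757 CPM and 2689 to 3049 CPM. Without wild-type replicate 3, 5 hedgehog-related genes were higher, against 6 with it, and col-42, col-103 and the grd genes named above kept their calls. Whether the muscle and epidermis levels of that library bear on the collagen and hedgehog-related values was not tested.

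Intestinal genes went both ways. Of 18 tested, 3 were higher (5 without wild-type replicate 4) and 4 lower, 38.9% called against 15.7% of all tested genes. The sums over all 19 in the files overlapped (2808 to 4140 CPM and 3296 to 4181 CPM). The brush-border actin gene act-5 rose from 102, 113, 102 and 121 CPM to 231, 197, 269 and 214 CPM (1.05 ± 0.15, adjusted p = 1.41e-04). The gut esterase gene ges-1 fell from 38.2, 41.6, 38.5 and 45.3 CPM to 19.8, 26.5, 19.3 and 25.9 CPM (-0.84 ± 0.11), and the acid phosphatase gene pho-6 by 0.88 ± 0.17. The summed level of the 17 pharynx genes in the files was 1744, 4159, 1112 and 4457 CPM in daf-2 replicates 1 to 4 and 2814 to 4414 CPM in the wild type, so daf-2 replicates 1 and 3 were the lowest. Of the 16 tested pharynx genes 1 was lower (6.25%) and none higher, and the part of this split in other results was not tested. In addition 2 of 14 tested genes of coelomocytes, the excretory system and glia were lower, 14.3% called against 15.7% of all tested genes. Only 1 was lower when daf-2 replicate 1 or 2 or wild-type replicate 2 or 3 was left out.

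Of 30 germ cell genes 4 were higher and none lower (1 lower without wild-type replicate 3), with sums of 329.2 to 506 CPM and 392.3 to 540 CPM. The share called was 13.3%, against 15.7% of all tested genes. The Piwi gene prg-1 rose from 15.9, 13.6, 10.6 and 18.6 CPM to 23.2, 28.5, 28.98 and 33.5 CPM (0.96 ± 0.16), and mes-6, for a subunit of a histone methyltransferase complex, by 0.93 ± 0.18. None of 21 tested maternal genes of the early embryo passed the test (median -0.29), with sums over all 23 in the files of 338 to 537 CPM and 312 to 448 CPM. Of 60 sperm genes 5 passed the filter on low counts and none was called, and of 14 vulva, gonad and adult markers 8 passed it, with 1 higher and 1 lower, and none higher when wild-type replicate 2 or daf-2 replicate 3 or 4 was left out.

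Growth is held back in arrest, and genes of DNA replication and the cell cycle were called in both directions. Of 27 DNA replication genes 4 were higher and 1 lower, 18.5% called against 15.7% of all tested genes. The higher count was 10 without wild-type replicate 1 and 2 when daf-2 replicate 1 or 3 or wild-type replicate 2 or 3 was left out, and none was lower without daf-2 replicate 1 or 2. The polymerase gene pole-1 stood at 32.7, 12.2, 12.0 and 25.5 CPM in the wild type and at 51.99, 40.8, 56.2 and 48.2 CPM in daf-2 (1.26 ± 0.27, adjusted p = 0.00486). The helicase gene mcm-6 rose by 0.55 ± 0.11. Of 26 tested genes of the cell cycle and its arrest in G1, 2 were higher and 2 lower, 15.4% called and so near the share of all tested genes. Only 1 was higher when daf-2 replicate 2 or 4, or wild-type replicate 2 or 3, was left out, and 1 was lower without any 1 daf-2 library and without wild-type replicate 1 or 2. The mitotic kinase gene plk-1 rose by 0.64 ± 0.15. The cyclin-dependent kinase inhibitor gene cki-1, which holds cells in G1, fell (-0.43 ± 0.11, adjusted p = 0.0114), as did the kinase gene cdk-2 (-0.36 ± 0.11, adjusted p = 0.0334), whose call was lost without any 1 library other than wild-type replicate 3 or 4. Of 19 tested histone genes 4 were lower (21.1%, against 7.74% of all tested genes) and none higher, with his-60 at -1.39 ± 0.23. Only 2 were lower when wild-type replicate 2 or daf-2 replicate 1, 2 or 4 was left out. Histone mRNAs mostly lack the poly(A) tail by which these libraries were made, so their counts are a small and selected part of the whole.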

How the data were processed

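Per the labels' protocols, TRIzol was used to isolate RNA, and poly(A) libraries with ERCC spikes were made with NEBNext Ultra II. Bowtie 1.2.2 and HTSeq 0.11.2 are named in the submitters' processing notes. Per the file headers of the deposited workbook, Bowtie reported 1 place per read and dropped reads with more than 2. Whether counting used strand is not given in the sources used here. The deposited values are raw counts for 46911 genes. The 5 HTSeq summary entries stayed out of library sizes. Unaligned reads were 35.75% to 37.99% of each of the 8 libraries.

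Of the gene identifiers, 45815 were named and 46857 placed with the Ensembl WBcel235 annotation. All 16 libraries, in 4 groups, entered 1 robust quasi-likelihood model with TMM scaling (edgeR 4.0.16, R 4.3.3), so the daf-2 contrast draws on the spread of every group. Calls are at an adjusted p (Benjamini-Hochberg) below 0.05 across 14058 genes. Each standard error was taken as the log2 difference divided by the root of the F statistic. Counting intervals are exact and cover counting error only. The model was also run on counts simulated from its own estimated spread with no library set apart, and no result here rests on that run.

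Genes were named by a rule: non-overlapping genes with the largest changes, the largest differences in CPM, the smallest p, up to 4 called genes per list, the pathway core, and a few FoxO targets. The interaction genes, ftn-1 and the rest of each run of neighbours were named after their values were seen. Members and lists were chosen with earlier results of these data known. Alternatives were other scalings, filters, gene classes and tools (DESeq2 1.42.0), a 1.5-fold test, the 8 libraries alone, a replicate block, and leaving out each library.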

Additional observations from a re-analysis of the deposited data

Results flagged for a closer look

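The differences were tested for being unlike with and without the irld alleles, and 9 genes stood out. The interaction on the log2 scale was 5.717 for srw-85 and 2.333 for ttr-50. It was -1.147 for ugt-64, -1.189 for C13B7.6 and -1.312 for Y45G12C.16. It was -4.723 for clec-209 and -4.753 for F56A4.2, and -7.664 for irld-35 and -10.668 for irld-53. With 1 strain per group other than the triple mutant, an allele and the rest of a strain's genome cannot be told apart, and the counts of near copies are uncertain as given above.

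In 21 cases 1 of the 4 libraries of a group lay apart from the rest for a named gene, among 153 genes and both groups, by Dixon's test at its 95% critical value, which chance alone passes in about 1 in 20 groups. Wild-type replicate 3 stood apart for mtl-2 at 41.45 CPM, F26F12.3 at 1219 CPM, cpr-1 at 95.66 CPM, spp-6 at 21.12 CPM, elo-5 at 1.86 CPM and mcm-6 at 40.85 CPM. Wild-type replicate 2 did so for dao-3 at 25.78 CPM, fat-3 at 380.9 CPM, clec-62 at 58.7 CPM, fbxa-24 at 591.4 CPM and srw-85 at 58.08 CPM. Wild-type replicate 1 stood apart for ins-5 at 0.06806 CPM and replicate 4 for Y45G12C.16 at 6.017 CPM. Among daf-2 libraries, replicate 3 stood apart for akt-1 at 266.7 CPM, cpr-1 at 5.629 CPM, spp-6 at 1.553 CPM and clec-10 at 0.7764 CPM. Replicate 2 did so for hsp-70 at 8.679 CPM and replicate 4 for pmp-5 at 15.98 CPM. The values of irld-35 in wild-type replicate 3, 0.1329 CPM, and of irld-53 in wild-type replicate 2, 0.06857 CPM, also met the criterion but rest on 5 counts and 1 count over the group, so that each stands 1 count above the other libraries.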

How the results depend on the processing

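The numbers of genes higher in daf-2 and of genes lower in daf-2 depended most on the threshold and on which libraries were fitted. Testing against a 1.5-fold change left 190 genes higher and 177 lower, and 5 interaction genes. Fitting the wild-type and daf-2 libraries alone gave 626 and 582, and the DESeq2 Wald test 21 interaction genes. Leaving out 1 library at a time gave 779 to 1115 higher, 761 to 1079 lower and 8 to 13 in the interaction. Keeping genes of low count gave 891 and 822, library sizes of all reads 1285 and 953, and the other alternatives also stayed within 1.5 times of the reported counts. The deviations of same-numbered libraries had correlations of 0.084, -0.034, 0.076 and 0.040, and those of other pairs -0.171 to 0.142. These values show no clear pairing by number but do not settle whether same-numbered libraries were collected together. With the replicate block 594 genes were higher and 509 lower. The cause of these shifts was not tested. Of 2600 values of named genes under alternatives, 2493 kept their direction and side of the threshold and 105 were no longer called, 63 of them in the 1.5-fold test. The others were those of ftn-1, par-5, sgk-1, cki-1 and cdk-2, icl-1 with genes of low count kept, asp-3 in the wild-type and daf-2 libraries alone, and asp-1, asp-3 and ahcy-1 under the block. The 2 that changed sign were not called in any fit. With 1 library left out, daf-2 ranged from -0.04 to 0.332 and mtl-1 from -0.047 to 0.253.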
